A study of Mus musculus with 8 samples.

Results

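The genes described here are Aatk, Lrtm1 and Pdzrn3, found in mouse liver RNA as every probe that carries 1 of these 3 symbols, or an older name for them, on an Illumina bead array. Of the 45281 probes on the array, 6 qualified: 1 for Aatk, 2 for Lrtm1 and 3 for Pdzrn3. These are 3 of 28913 symbols in all, and no probe was listed under an older name of theirs. The 3 genes were chosen by the difference measured here, since they were among the 10 largest falls between the groups, so their differences are given as a description and without a test. Ranked by the fitted difference among 11690 tested genes, Lrtm1 had the 6th, Aatk the 8th and Pdzrn3 the 10th largest fall. Pdzrn3 lay just inside that limit of 10 with a log2 difference of -2.34, and Immp2l just outside it, in place 11, with -2.33.

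Arrays were made from 8 male C57BL/6J mice on a high-fat diet, 1 liver and 1 array per mouse. A group of 4 mice received an oligonucleotide of the antisense type (ASO), which binds a matching RNA and leads to its loss, aimed at Mogat1, and the other 4 received a scrambled control ASO. All 8 mice share the diet, in which 60% of calories came from fat and which began at 6 weeks of age. All 8 also share the schedule of 25 mg/kg into the peritoneum, 2 times a week for 3 weeks, begun after 14 weeks of diet, and all are listed as 25 weeks old. The labels name no mouse without an ASO, so each difference sets one oligonucleotide against another.

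The 3 genes encode proteins of different kinds. AATK, also called LMTK1, is a membrane-anchored kinase first described in apoptosis of myeloid cells and studied mostly in neurons, where it acts on Rab11-positive recycling endosomes and on the growth of axons and dendrites. PDZRN3, also called LNX3, is a RING-type E3 ubiquitin ligase with PDZ domains, known in mice for its part in postsynaptic assembly at the neuromuscular junction and in Wnt signalling of endothelial cells. LRTM1 is a membrane protein with leucine-rich repeats whose function is little known. None of the 3 is a classical marker of hepatocytes.

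In the RefSeq annotation, Aatk holds the microRNA gene Mir338 within its span and Lrtm1 lies inside Cacna2d3, a calcium channel subunit gene. The 300 bases around the annotated start of each gene (250 before it and 50 after, RefSeq, GRCm38.p6) are shown because the members have in common a fall of about the same size while these windows differ in base composition. Capitals mark CG dinucleotides, and for Aatk, with 4 annotated starts in the table, the most upstream one is given.
Aatk, chr11:120047103-120047402, minus strand: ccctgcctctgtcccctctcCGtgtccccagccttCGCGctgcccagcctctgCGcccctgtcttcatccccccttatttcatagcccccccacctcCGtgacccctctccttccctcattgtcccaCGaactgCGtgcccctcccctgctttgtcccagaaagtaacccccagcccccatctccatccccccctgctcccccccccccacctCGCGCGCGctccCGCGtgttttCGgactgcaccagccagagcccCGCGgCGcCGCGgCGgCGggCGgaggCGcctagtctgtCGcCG
Lrtm1, chr14:29017958-29018257, plus strand: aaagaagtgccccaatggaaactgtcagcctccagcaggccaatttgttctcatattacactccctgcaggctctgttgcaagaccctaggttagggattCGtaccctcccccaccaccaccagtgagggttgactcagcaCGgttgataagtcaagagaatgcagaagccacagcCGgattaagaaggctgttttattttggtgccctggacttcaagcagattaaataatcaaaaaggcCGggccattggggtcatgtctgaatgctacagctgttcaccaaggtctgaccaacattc
Pdzrn3, chr6:101377848-101378147, minus strand: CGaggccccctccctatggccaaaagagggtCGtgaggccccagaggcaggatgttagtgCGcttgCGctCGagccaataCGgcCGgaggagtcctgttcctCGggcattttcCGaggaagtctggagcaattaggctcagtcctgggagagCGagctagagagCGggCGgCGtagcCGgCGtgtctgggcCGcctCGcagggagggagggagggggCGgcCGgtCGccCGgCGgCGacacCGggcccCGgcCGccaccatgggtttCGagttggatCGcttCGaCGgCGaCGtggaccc

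The Aatk window held 25 CG dinucleotides at a GC content of 70.3%, and the Pdzrn3 window 32 at 68.7%. The Lrtm1 window held 4 at 49.3%. Over all 32851 windows of this length in the table the median was 7, and 83.1% of windows had no more than the Aatk window, 38.0% no more than the Lrtm1 window and 91.4% no more than the Pdzrn3 window. The printed Aatk and Pdzrn3 windows thus held more CG dinucleotides than the median window and the Lrtm1 window fewer. Another Aatk start close by also held 25, while the 2 Aatk starts further downstream held 6 and 7. A search on both strands for 5 short words found no match in any of the 3 windows. The words were TTCNNNGAA, the STAT type, present in 8.30% of all windows, TTGCNNAA, the C/EBP type, in 10.8%, CACGTG, the E-box, in 7.15%, TATAAA in 13.6% and CAAAGTCCA, bound by HNF4-alpha, in 0.475%. No match was found, so no overlap between words arose, and the absence says only that these letters are not in these windows.

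The array facts that bear on the members are few. The targeted transcript, Mogat1, was not above background on any array (lowest detection p 0.814 for its single probe), so the knockdown itself could not be read. The median signal was 88.7 to 110.2 on Mogat1 ASO arrays and 84.3 to 112 on control ASO arrays, and 15788 to 16944 probes against 15819 to 16864 were detected, that is, had a detection p under 0.05. Principal component analysis of all tested genes placed Mogat1 ASO replicate 1 at -8.88 on the first component, between the other Mogat1 ASO arrays at -24.8 to -19.8 and the control ASO arrays at 14.7 to 22.1. On the second component Mogat1 ASO replicate 1 lay at 29.3, apart from all other arrays at -13.6 to 12.6. Of the hepatocyte markers, Apoa1 and Ttr, both plasma protein genes, were at log2 levels of 15.8 and 15.4 in Mogat1 ASO livers and 15.8 and 15.3 in control ASO livers, while the probes listed for Alb, Fabp1 and Tat were not detected on any array. None of the 5 tested hepatocyte markers reached a limma adjusted p under 0.05, against 13.3% of all genes. The median log2 difference of these markers was -0.30. Among them Serpina1a, an antitrypsin gene, differed by -0.57 (SE 0.18, limma adjusted p = 0.0646). Its groups did not overlap, which held in the lower direction for 8.81% of all genes. Cps1, a urea cycle enzyme gene, differed by -0.39 and Hnf4a, a hepatocyte transcription factor gene, by -0.30. The part of the hepatocyte markers in the levels of the 3 genes was not tested.

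Aatk, measured by 1 probe, was far lower in every Mogat1 ASO liver and had the smallest spread among control ASO livers of the 3 genes. Its non-normalized signal was 450, 533, 508 and 1288 on Mogat1 ASO replicates 1 to 4, against 2839, 3106, 2987 and 3219 on control ASO replicates 1 to 4. The groups did not overlap, and replicate 4 stood above the other three Mogat1 ASO livers. All 8 arrays had a detection p of 0.

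After background correction and quantile normalization the log2 level of Aatk was 9.11 ± 0.57 in Mogat1 ASO livers and 11.49 ± 0.11 in control ASO livers (SD, n = 4 each). This is a log2 difference of -2.38 (SE 0.22), or a 5.21-fold lower level. The normalized level stood at 14.9%, 15.7%, 16.8% and 34.5% of the control ASO mean on Mogat1 ASO replicates 1 to 4. Without replicate 4 the fold was 6.38. The spread within the Mogat1 ASO group therefore came mostly from 1 liver, and the gap between the groups, from the highest Mogat1 ASO to the lowest control ASO array, was 1.42 on the log2 scale.

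**Figure D1:**
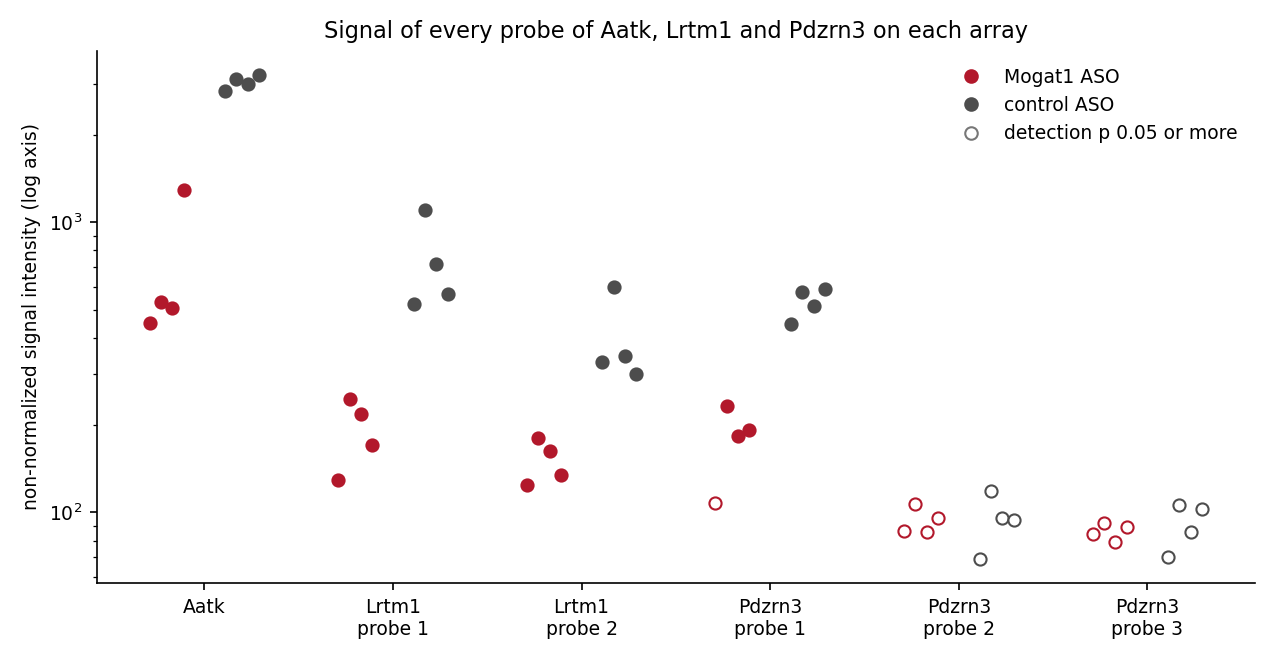
Non-normalized signal intensity (log axis) of the 6 probes of Aatk, Lrtm1 and Pdzrn3, 1 point per array, with 4 Mogat1 ASO arrays to the left of 4 control ASO arrays for each probe and open circles where the detection p was 0.05 or more. The Aatk probe, both Lrtm1 probes and 1 Pdzrn3 probe separate the groups, while the 2 other Pdzrn3 probes are open circles on all 8 arrays.

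Lrtm1 was measured by 2 probes, and both were detected on every array. The brighter probe had signals of 129, 245, 219 and 171 on Mogat1 ASO replicates 1 to 4, against 524, 1106, 719 and 565 on control ASO replicates 1 to 4. The dimmer probe gave 124, 181, 162 and 135 on Mogat1 ASO arrays, against 329, 596, 346 and 299 on control ASO arrays. In raw signal both probes ordered the Mogat1 ASO livers alike, with replicate 2 highest and replicate 1 lowest, and both had control ASO replicate 2 as the brightest of the 8.

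On the log2 scale the brighter Lrtm1 probe was at 6.69 ± 0.76 in Mogat1 ASO livers and 9.26 ± 0.47 in control ASO livers (SD, n = 4 each), a difference of -2.57 (SE 0.34) and a 5.94-fold lower level, or 3.74-fold without background correction. The dimmer probe was at 6.13 ± 0.63 in Mogat1 ASO livers and 8.22 ± 0.47 in control ASO livers (SD, n = 4 each), a difference of -2.09 (SE 0.30) and a 4.27-fold lower level. Both probes thus showed the lower level, with the smaller difference on the dimmer probe. Neither probe had overlapping groups, with gaps of 1.45 and 1.01 on the log2 scale.

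By the brighter probe, the normalized Lrtm1 values of the Mogat1 ASO livers fell into pairs. The log2 level was 6.00 and 6.08 on replicates 1 and 4, and 7.34 and 7.36 on replicates 2 and 3. Relative to the control ASO mean, replicates 2 and 3 stood at 26.4% and 26.7%. Control ASO livers ranged from 73.3% to 147% of their own mean, the widest control spread of the 3 genes. Replicate 4, which had the highest Aatk level of its group, was thus among the lowest for Lrtm1. By the dimmer probe replicates 1 and 4 lay further apart, at 5.87 and 5.36, with replicates 2 and 3 at 6.62 and 6.66.

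For Pdzrn3, 1 of 3 probes was above background. Its signal was 107, 233, 183 and 193 on Mogat1 ASO replicates 1 to 4, against 445, 575, 517 and 587 on control ASO replicates 1 to 4. Mogat1 ASO replicate 1 had a detection p of 0.0534, just past the limit, so the probe was detected in 3 of 4 Mogat1 ASO livers and in all 4 control ASO livers. Every Mogat1 ASO liver lay below every control ASO liver.

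The log2 level of this Pdzrn3 probe was 6.47 ± 0.85 in Mogat1 ASO livers and 8.81 ± 0.13 in control ASO livers (SD, n = 4 each), a difference of -2.34 (SE 0.33) and a 5.06-fold lower level, or 3.07-fold without background correction. The 4 Mogat1 ASO livers stood at 8.81%, 33.3%, 27.6% and 18.8% of the control ASO mean in the order of their replicate numbers. Without replicate 1, the liver in which the probe was not detected, the fold was 3.87. The gap between the groups was 1.44 on the log2 scale.

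The 2 other Pdzrn3 probes did not rise above background on any array, in either group. Their signals were 85.3 to 106.5 and 79.3 to 92.0 on Mogat1 ASO arrays, against 69.1 to 118 and 70.2 to 106.0 on control ASO arrays, with lowest detection p of 0.108 and 0.309. No fold is given for them. The Pdzrn3 result therefore rests on a single probe, and the positions of the 3 probes in the transcript were not analysed here.

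**Figure D2:**
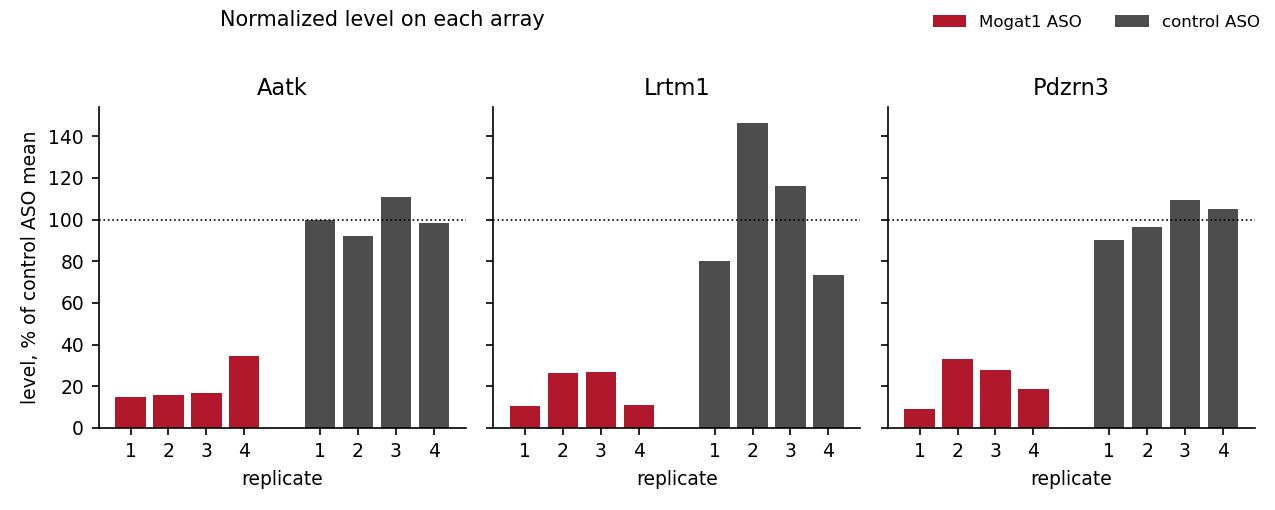
Normalized level of Aatk, Lrtm1 (brighter probe) and Pdzrn3 (the detected probe) on each array as a percentage of the control ASO mean of log2 levels, taken back to the linear scale; bars are single livers, with Mogat1 ASO replicates 1 to 4 left of control ASO replicates 1 to 4, and the dotted line marks 100%. Every Mogat1 ASO bar is at 34.5% or less, replicate 4 is the highest for Aatk, and replicate 1 is the lowest for each gene.

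Across the 3 genes the Mogat1 ASO livers did not keep one order. By the brighter Lrtm1 probe, replicate 1 had the lowest normalized level for each gene, and the highest was replicate 4 for Aatk, replicate 3 for Lrtm1 and replicate 2 for Pdzrn3. By the dimmer Lrtm1 probe the lowest was replicate 4, at a log2 level of 5.36 against 5.87 for replicate 1. Among the 717 genes that passed the threshold as lower, replicate 1 was the lowest Mogat1 ASO array for 20.1% and the highest for 44.1%. By the brighter Lrtm1 probe, the 3 members thus sat at the low end in Mogat1 ASO replicate 1. That liver lay between the groups on the first principal component and apart from all other arrays on the second. In whole-liver RNA, fewer cells that make a transcript and less transcript per cell cannot be told apart.

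The setting of these differences among all genes was as follows. With a limma fit, a Benjamini-Hochberg adjusted p under 0.05 was reached by 1552 of 11690 genes (13.3%), of which 835 (7.14%) were higher and 717 (6.13%) lower in Mogat1 ASO livers. Leaving out single arrays gave 439 to 1102 higher and 411 to 1129 lower genes. The median log2 difference over all tested genes was -0.0036. The groups did not overlap, with Mogat1 ASO livers lower, for 1030 genes (8.81%), the 3 members among them, and 16 genes (0.137%) were at least 4-fold lower, again with the 3 members among them. Since this contrast chose the members, these shares are given for scale alone.

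**Figure D3:**
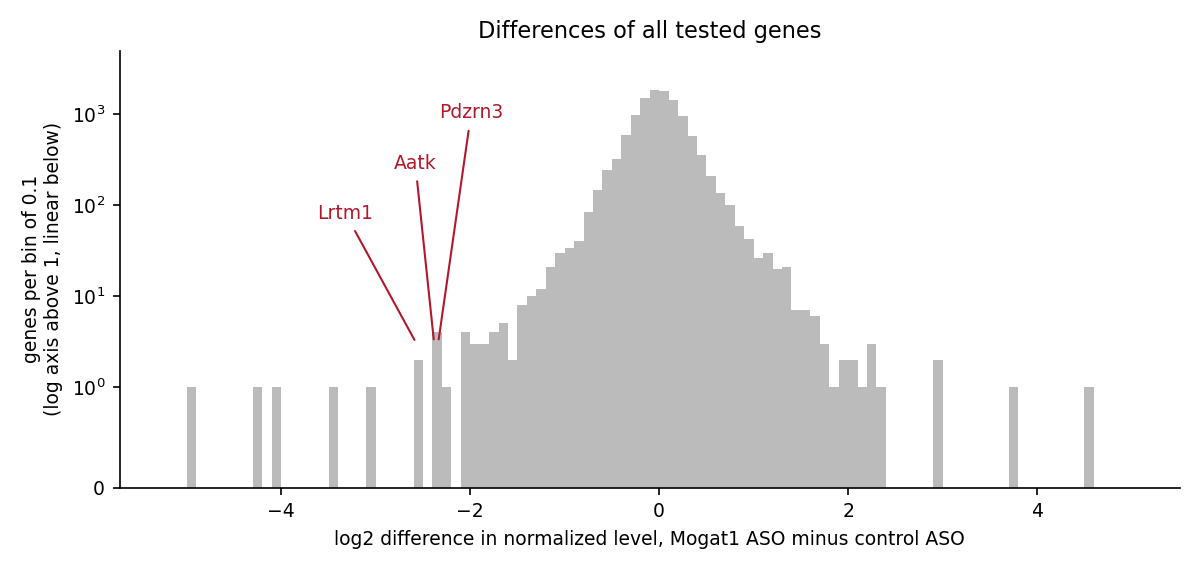
Distribution of the log2 difference in normalized level, Mogat1 ASO minus control ASO (horizontal axis), over 11690 tested genes in bins of 0.1, with the number of genes per bin on an axis that is logarithmic above 1 and linear below. Lrtm1 at -2.57, Aatk at -2.38 and Pdzrn3 at -2.34 lie in the sparse left tail.

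The profiles of Lrtm1 and Pdzrn3 were the closest pair among the 3 members. Likeness was measured as the root-mean-square difference over the 8 arrays between log2 levels, each centred on its control ASO mean and small values mean levels of similar size relative to control ASO livers. The livers need not stand in the same order, and since the members were chosen for a large fall, the measure mainly follows the size of the fall. It was 0.43 between Lrtm1 and Pdzrn3, 0.62 between Aatk and Pdzrn3 and 0.77 between Aatk and Lrtm1. The median distance of all 9711 genes compared was 1.73 from Aatk, 1.90 from Lrtm1 and 1.74 from Pdzrn3.

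Outside the members, 4 genes made up the nearest 3 of each. Rtn4ip1, which encodes a mitochondrial oxidoreductase, was nearest to Aatk at a distance of 0.45. Synj2bp, which encodes an outer mitochondrial membrane protein with a PDZ domain, was nearest to Lrtm1 at 0.52 and to Pdzrn3 at 0.49, and next after Rtn4ip1 for Aatk at 0.57. Immp2l, a subunit of the inner mitochondrial membrane peptidase, was within the nearest 3 of Aatk and of Lrtm1 at 0.59 each. Tpm2, a tropomyosin gene, was next after Synj2bp for Pdzrn3 at 0.52. Rtn4ip1 was also within the nearest 3 of Lrtm1 at 0.60 and of Pdzrn3 at 0.53.

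These genes were picked for their likeness, so their levels are a description. Synj2bp was at 7.08 ± 0.40 in Mogat1 ASO livers and 9.42 ± 0.16 in control ASO livers on the log2 scale (SD, n = 4 each). Tpm2 was at 6.68 ± 0.55 in Mogat1 ASO livers and 8.47 ± 0.57 in control ASO livers (SD, n = 4 each). The log2 differences were -2.34 for Synj2bp, -2.33 for Immp2l, -2.07 for Rtn4ip1 and -1.79 for Tpm2, against -2.38 for Aatk, -2.57 for Lrtm1 and -2.34 for Pdzrn3.

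**Figure D4:**
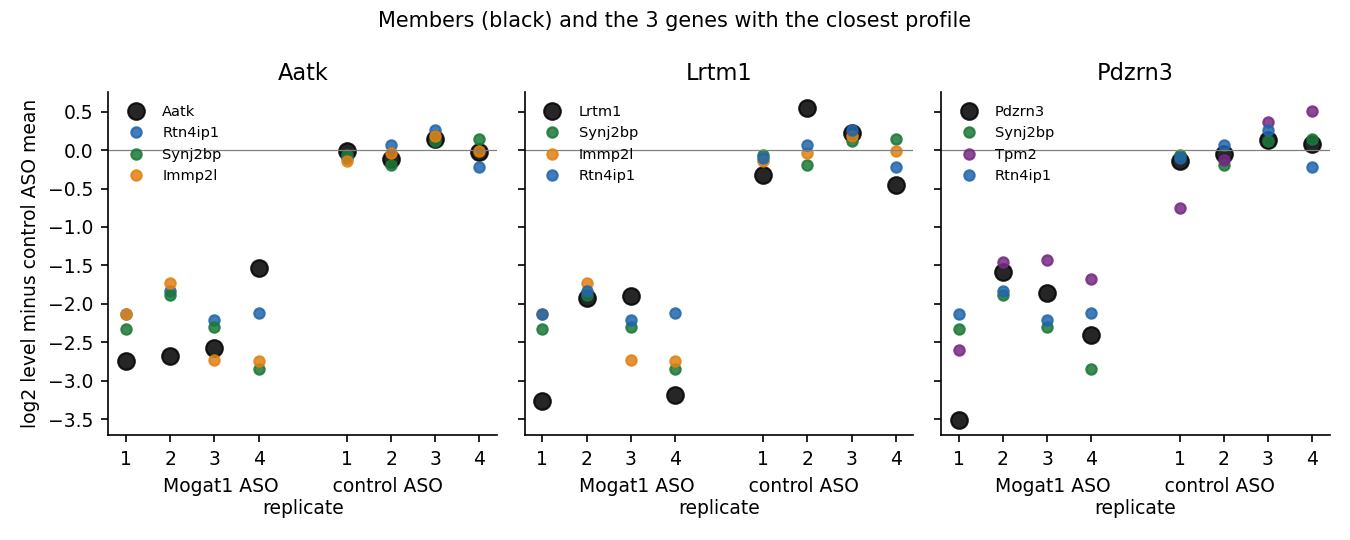
Log2 level minus the control ASO mean of the same gene (vertical axis) on each of 8 arrays, Mogat1 ASO replicates left of control ASO replicates, for Aatk, Lrtm1 and Pdzrn3 in black and the 3 genes with the smallest root-mean-square difference from each in colour. Among Mogat1 ASO replicates, Aatk is above its 3 nearest genes on replicate 4 and below them on replicates 1 and 2. Lrtm1 is below its nearest genes on replicates 1, 2 and 4 and above them on replicate 3. Pdzrn3 is below its nearest genes on replicate 1 alone.

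The families and reported partners of the 3 proteins were read in the same fit. Of 66 such genes, 62 had a probe, and 24 were detected widely enough to be tested, that is, on at least 4 arrays. In the limma fit 1 rose and 0 fell, which is 4.17% of those tested against 13.3% of all genes, and their median log2 difference was 0.01. At an unadjusted p under 0.05 the counts were 2 higher and 3 lower, 20.8% of those tested against 28.8% of all genes. The count of falls was 1 without Mogat1 ASO replicate 1, where 1129 of 11536 genes passed as lower. With array weights it was 2, where 1268 of 11690 genes passed as lower.

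Around AATK, 13 of 16 genes were tested and their median log2 difference was -0.05. Rab11fip5, which encodes an effector of Rab11 on recycling endosomes, rose 1.72-fold: its log2 level was 6.94 ± 0.18 in Mogat1 ASO livers and 6.16 ± 0.22 in control ASO livers (SD, n = 4 each, limma adjusted p = 0.0060). Its adjusted p was 0.0017 to 0.025 over the alternatives. Lmtk2, the tested kinase of the same family, differed by 0.04 (SE 0.10, adjusted p = 0.834), and Rab11b, the brightest of the list, by 0.07 (SE 0.08, adjusted p = 0.635). Lmtk3 was not detected on any array.

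Stk39 and Slc12a2, a kinase and a chloride cotransporter reported to act with AATK, did not pass. Stk39 differed by -0.42 (SE 0.15, adjusted p = 0.0905) and Slc12a2 by -0.31 (SE 0.11, adjusted p = 0.0878). Neither had overlapping groups, which held in the lower direction for 8.81% of all genes. Without Mogat1 ASO replicate 1 Slc12a2 passed as lower (adjusted p = 0.0184), and with array weights both did. These settings also called more of all genes lower, 1129 of 11536 and 1268 of 11690, against 717 of 11690 in the main fit. Cdk5, the neuronal kinase that phosphorylates AATK, differed by -0.11 (SE 0.11) and its activator gene Cdk5r1 by 0.26 (SE 0.25).

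Of the 19 genes around PDZRN3, 7 were tested and none passed, against 13.3% of all genes. The 7 had a median log2 difference of 0.06. Lnx2, the tested ligase of the same family, differed by 0.08 (SE 0.14, adjusted p = 0.753), while Lnx1 was not detected and the best of 5 Pdzrn4 probes was detected on 3 arrays. Agrn, the secreted organiser of the neuromuscular junction, differed by 0.23 (SE 0.09, adjusted p = 0.115) and its receptor gene Lrp4 by 0.06 (SE 0.13). Dvl1, a cytoplasmic relay of Wnt signals, differed by -0.31 (SE 0.11, adjusted p = 0.0962). Its groups did not overlap, which held in the lower direction for 8.81% of all genes. Musk, the junction kinase, was not among the genes tested.

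Among leucine-rich repeat membrane proteins, calcium channel subunits of the Cacna2d family and Fgfr1, 31 genes in all, 4 were tested and none passed. Lrfn3, a synaptic adhesion gene, differed by 0.10 (SE 0.13, adjusted p = 0.656) and Slitrk1, a neuronal gene, by -0.07 (SE 0.16, adjusted p = 0.825). Of this list 25 genes were not detected on any array, Lrtm2 and Cacna2d3 among them. The lowest detection p of the single Cacna2d3 probe was 0.150, so the gene that surrounds Lrtm1 gave no measurable level in either group.

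Genes next to the members in the genome were also examined, 5 protein-coding genes on either side of each. Of 30 neighbours 16 were tested, and 3 fell and 0 rose, which is 18.8% of those tested. Of all genes 13.3% passed in either direction and 6.13% as lower. The median log2 difference of the tested neighbours was -0.08. At an unadjusted p under 0.05 the counts were also 3 lower and 0 higher. Of all genes 28.8% reached that limit in either direction, and 1597 of 11690 as lower. Among the 3 is Erc2, which was detected in control ASO livers alone, and with probes detected on all 8 arrays the count was 2. It was 1 without control ASO replicate 2, replicate 3 or replicate 4.

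Near Aatk, Rptor fell 1.59-fold and 6 other tested neighbours did not pass. Rptor, which encodes the raptor subunit of the mTORC1 growth kinase complex, was at 8.47 ± 0.05 in Mogat1 ASO livers and 9.14 ± 0.17 in control ASO livers on the log2 scale (SD, n = 4 each, limma adjusted p = 0.0025, and 4.7e-04 to 0.012 over the alternatives). Chmp6, an endosomal sorting gene and the brightest of the other neighbours, differed by -0.07 (SE 0.10, adjusted p = 0.667).

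Near Lrtm1 the genes past the threshold were Chdh and Erc2. Erc2, a presynaptic scaffold gene, was below detection in each Mogat1 ASO liver and was detected dimly in all 4 control ASO livers, with signals of 80.3 to 103.3 against 114 to 146. It was at least 1.28-fold lower in Mogat1 ASO livers. It entered the fit only through its control ASO arrays, so its call is not read as a result about the neighbours. Chdh, which encodes choline dehydrogenase, was at 8.14 ± 0.09 in Mogat1 ASO livers and 8.54 ± 0.12 in control ASO livers (SD, n = 4 each, 1.32-fold lower, adjusted p = 0.0242). That call held under 11 of 20 alternatives, with adjusted p of 0.0048 to 0.103. The 2 tested neighbours of Pdzrn3 did not pass: Rybp differed by -0.02 (SE 0.11, adjusted p = 0.915) and Shq1 by -0.03 (SE 0.15, adjusted p = 0.920).

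**Figure D5:**
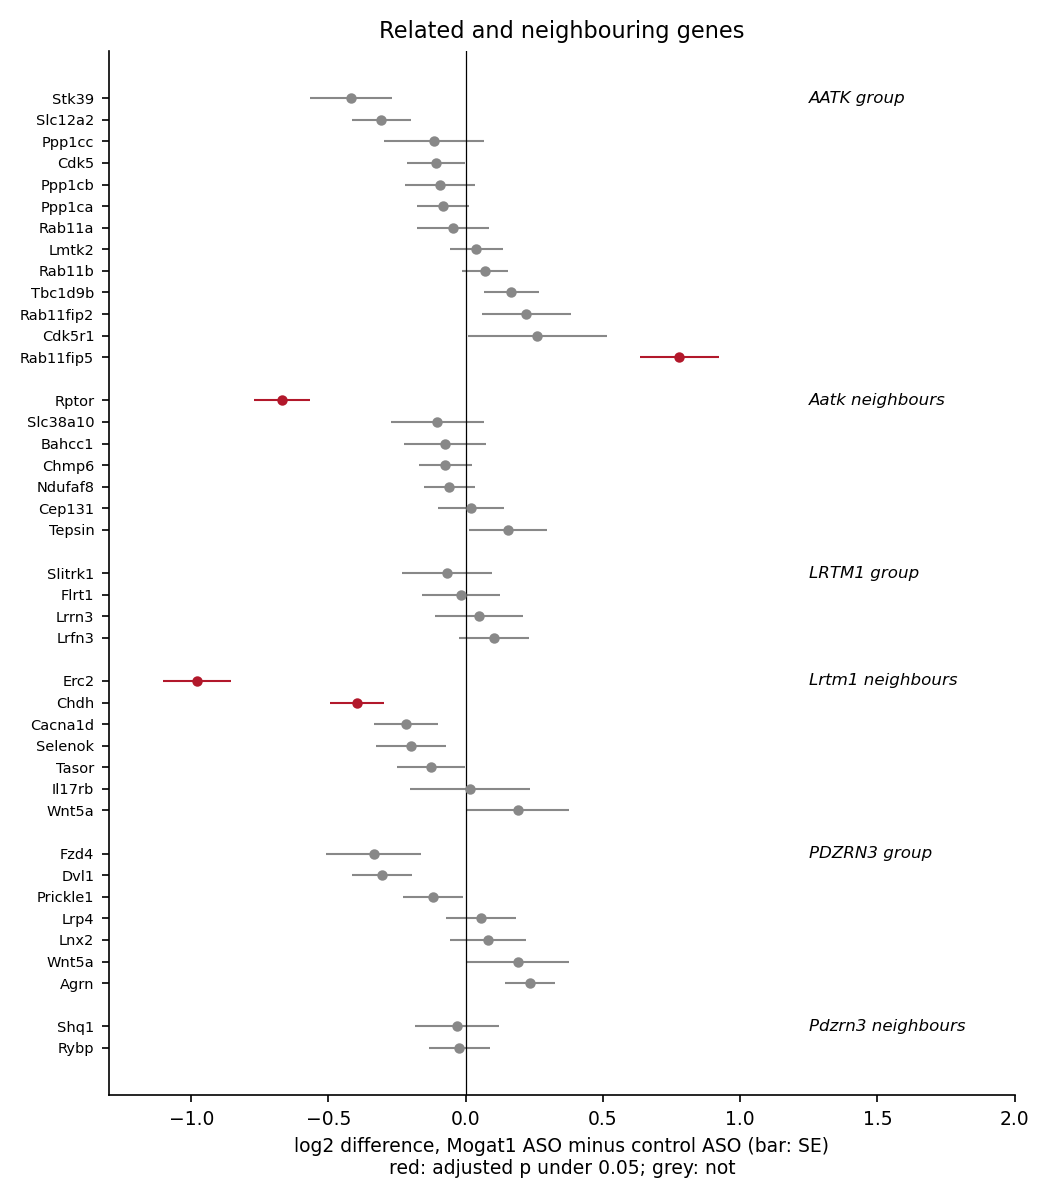
Log2 difference, Mogat1 ASO minus control ASO (horizontal axis, with SE as bars), for each tested gene of the families and partners of AATK, LRTM1 and PDZRN3 and for the tested neighbours of the 3 genes; red marks an adjusted p under 0.05. Rab11fip5 is the 1 red point above 0 and Rptor, Erc2 and Chdh are the red points below 0. Erc2 was not detected in Mogat1 ASO livers, so its place depends on the offset added before the log2 step, at -0.98 with an offset of 16 and -1.79 with an offset of 1. Wnt5a appears under both the PDZRN3 group and the Lrtm1 neighbours.

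Since AATK and PDZRN3 are known mainly from neurons, muscle and vessels, markers of those cells were read beside the 3 genes. Of 6 neuronal markers 1 was tested: Syt1, the calcium sensor of synaptic vesicles, which fell 1.99-fold. Its summed level on the linear scale was 229 to 362 in Mogat1 ASO livers and 428 to 684 in control ASO livers (limma adjusted p = 0.0051). The other neuronal markers with a probe, Snap25, Tubb3, Nefl and Stmn2, were not detected on any array. Of 6 skeletal muscle markers 1 was tested, Mylpf, at 41.4 to 44.2 in Mogat1 ASO livers and 35.0 to 59.1 in control ASO livers. Acta1, Ckm, Myh4 and Tnnt3 were not detected on any array, and Myog on at most 3.

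All 6 endothelial markers were tested and 2 passed (33.3% against 13.3% of all genes). Lyve1, a hyaluronan receptor of sinusoidal and lymphatic endothelium, rose 2.43-fold (adjusted p = 0.0012) and Stab2, a sinusoidal scavenger receptor, fell 1.48-fold (adjusted p = 0.0043). The summed level of all 6 endothelial markers was 1544 to 1738 in Mogat1 ASO livers and 1611 to 1944 in control ASO livers. None of the tested markers of stellate cells, cholangiocytes, macrophages or adipocytes passed. Of the 2 tested adipocyte markers, Cfd, which encodes adipsin, differed by -1.41 (SE 0.44, adjusted p = 0.0600) with overlapping groups, and Lep by 0.11. The summed adipocyte level was 585 to 1102 in Mogat1 ASO livers and 898 to 4344 in control ASO livers, and Adipoq and Retn were not detected. The sums were 6396 to 9311 in Mogat1 ASO livers and 5864 to 8114 in control ASO livers for stellate markers, 958 to 1913 and 959 to 1203 for cholangiocyte markers, and 2778 to 3829 and 2844 to 3474 for macrophage markers. The part of any of these cells in the levels of Aatk, Lrtm1 and Pdzrn3 was not tested.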

How the data were processed

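Liver RNA of 8 mice was hybridised to Illumina single-colour arrays after T7 linear amplification, per the labels' protocols. The deposited table holds a non-normalized signal intensity and a detection p-value per probe and array, per the file headers. The deposited series table holds background-subtracted, normalized intensities on a linear scale, by a method not given in the sources used here, and served as an alternative.

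Signals were corrected by normexp with background inferred from detection p, then put on a common scale by quantile normalization and log2-transformed after adding an offset of 16 (neqc steps of limma 3.58.1, R 4.3.3, with the package data.table, version 1.17.8). Probes with detection p under 0.05 on at least 4 of 8 arrays entered a linear model (lmFit, then eBayes with trend), two-sided, adjusted by Benjamini-Hochberg over all probes tested. Of several tested probes of a gene the brightest was kept. Folds are antilogs of log2 differences. For a gene undetected in a whole group it is a bound against the lowest detected level. The steps were tested on simulated data. Figures used Python 3.11.15 and matplotlib 3.10.9.

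Symbols were updated through the RefSeq gene names of GRCm38.p6, with 27740 probes current, 7995 updated, 187 ambiguous and 9359 unmatched. The members and lists were chosen with earlier results of these data known. Named genes were the members, the 3 nearest profiles of each (clone and locus identifiers left out), ranks 10 and 11 of the falls and, per list, each gene that passed, filled to 2 with the brightest. Lmtk2, Lmtk3, Lnx1, Lnx2, Pdzrn4, Lrtm2, Cacna2d3, Stk39, Slc12a2, Cdk5, Cdk5r1, Lrp4, Musk and marker genes that did not pass were named outside that rule, after their values were seen. Each group has 4 mice, whose number limits the precision, and no 2 arrays were identical. The alternatives tried were background correction, offset, scaling, source of values, filter, probes of a gene, variance estimate, array weights, replicate block and leaving out each array.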

Additional observations from a re-analysis of the deposited data

Results flagged for a closer look

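Of 74 groups of 4 arrays examined for the members and named genes, 37 genes in all, 3 held a liver far from the other three of its group, and chance alone flags about 1 in 20. Aatk on Mogat1 ASO replicate 4 had a log2 level of 9.959, with the nearest other Mogat1 ASO liver at 8.919, a gap that was 0.861 of the range of the group. Chdh on control ASO replicate 1 had a log2 level of 8.36, with the nearest other control ASO liver at 8.578, a gap of 0.871 of the range. Lrp4 on Mogat1 ASO replicate 1 had a log2 level of 8.471, with the nearest other Mogat1 ASO liver at 8.749, a gap of 0.835 of the range.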

How the results depend on the processing

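Aatk, Lrtm1 and Pdzrn3 were lower in Mogat1 ASO livers under each alternative that gave a value, at 4.67-fold to 6.38-fold, 3.74-fold to 6.96-fold and 3.07-fold to 6.15-fold lower. Since these same arrays chose the members as falls, the ranges describe the size and are no separate support. Changes of filter, variance estimate or replicate block do not alter the levels, so the differences stayed the same where given. Without background correction the log2 difference moved beyond the spread between replicates for Lrtm1 (-1.90) and Pdzrn3 (-1.62), whose signals lie nearer to background, and the cause was not tested. Leaving out single arrays gave -2.67 to -2.26 for Aatk, -2.80 to -2.34 for Lrtm1 and -2.59 to -1.95 for Pdzrn3. Pdzrn3 had no value with probes detected on all 8 arrays, since its probe was detected on 7.

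The number of genes past the threshold was 460 higher and 492 lower with median scaling, and 1347 higher and 1268 lower with array weights. Without Mogat1 ASO replicate 3 it was 439 and 411, without Mogat1 ASO replicate 4 496 and 457, without control ASO replicate 2 498 and 411, and without control ASO replicate 3 511 and 417, while without Mogat1 ASO replicate 1 it was 1102 and 1129. Leaving out single arrays gave 0 to 1 related genes lower and 1 to 3 neighbouring genes lower, and array weights gave 2 related genes lower. Losses of Erc2 without a control ASO array follow from the detection filter.

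Same-numbered arrays of the groups had correlations of their deviations of -0.02 to 0.23, and differently numbered arrays -0.31 to 0.28. These values do not decide whether the numbers pair the mice. By the brighter Lrtm1 probe, replicates 1 and 4 lay below and replicates 2 and 3 above their group mean in both groups. Aatk and Pdzrn3 did not keep the same sides in both groups. A replicate block gave 784 higher and 707 lower genes and 1 related gene higher. In this balanced design it cannot change the log2 differences, which stayed at -2.38, -2.57 and -2.34 for Aatk, Lrtm1 and Pdzrn3. The block changed their SE to 0.19, 0.15 and 0.25, from 0.22, 0.34 and 0.33. The block gave 2 neighbouring genes lower, since Chdh had an adjusted p of 0.0573.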
